A study of Oryza sativa with 12 samples.

Results

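The effect of a short chill at the end of the day was measured by RNA sequencing in rice seedlings. The comparison is made of 6 of the series' 12 libraries, taken by their labels: 3 from seedlings held at 13 °C for 4 h, from ZT8 to ZT12 (called CT12), and 3 from seedlings left at 28 °C over the same hours (NT12). ZT, Zeitgeber time, is counted in hours from lights-on, so that ZT12 is dusk in the 12 h light and 12 h dark cycle in which the plants had been raised. All plants were of the indica cultivar 93-11, at the 3-leaf stage, about 10 days old and harvested on day 11, and every group had been raised at 28 °C. Each library came from the pooled above-ground parts of 5 plants, which the labels call biological repeats. The other 6 libraries followed the same scheme at dawn (CT24 chilled from ZT20 to ZT24, NT24 its control). They are used here to show where the dusk response differs and to fit the spread between replicates. They also enter the low-count filter, the scaling and the classes of abundance. A single cultivar was used, and the sources used here do not say whether the lamps stayed on during the chill.

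Rice comes from warm climates, and temperatures that are cool but well above freezing already slow its enzymes, stiffen its membranes and reduce its photosynthesis. In plants generally, cold raises transcription factors of the DREB1/CBF family within hours, and these raise protective genes in turn. The circadian clock gates this response, so that the same cold given at another hour can have another effect. Dusk is also the hour at which a leaf passes from photosynthesis to the use of its stored starch. These are statements of background: the deposited table carries identifiers without gene names, 0 of its 40424 identifiers matched the reference gene table, and none of the 65 members of 8 pathway and cell type lists (clock, DREB and cold regulators, dehydrins, heat shock, photosynthesis, starch and sucrose, root and dividing-cell genes) could be found among them. The tissue could therefore not be checked against marker genes, and genes are described here by level, size of change and spread.

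The 3 CT12 libraries lay far from the 3 NT12 libraries, and 1 CT12 library lay apart from the others of its group. Total counts ran from 47757049 to 49507292 in NT12 and from 42966604 to 44275505 in CT12. Libraries were compared by the share of their total counts that each gene held. The part of a library's counts that sat on different genes in another library was taken (the summed absolute differences of the gene shares, halved). It was 6.82% to 8.64% between NT12 libraries and 28.0% to 30.8% between an NT12 and a CT12 library. Between CT12 replicates 1 and 3 it was 5.65%, but replicate 2 differed from them by 13.8% and 14.3%. Replicate 2 was as far from the NT12 libraries (29.1% to 30.7%) as the other CT12 libraries were (28.0% to 30.8%). CPM is a gene's counts per 1000000 counts of its library, after scaling by edgeR's trimmed mean of M values (TMM). For genes averaging 100 to 1000 CPM over all 12 libraries, the median coefficient of variation between replicates was 9.73% in NT12 and 15.3% in CT12. Without replicate 1, 2 or 3 it was 7.07%, 7.77% and 9.5% in NT12, and 16.4%, 6.40% and 17.1% in CT12. The results below are therefore given without CT12 replicate 2 as well where it matters.

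**Figure D1:**
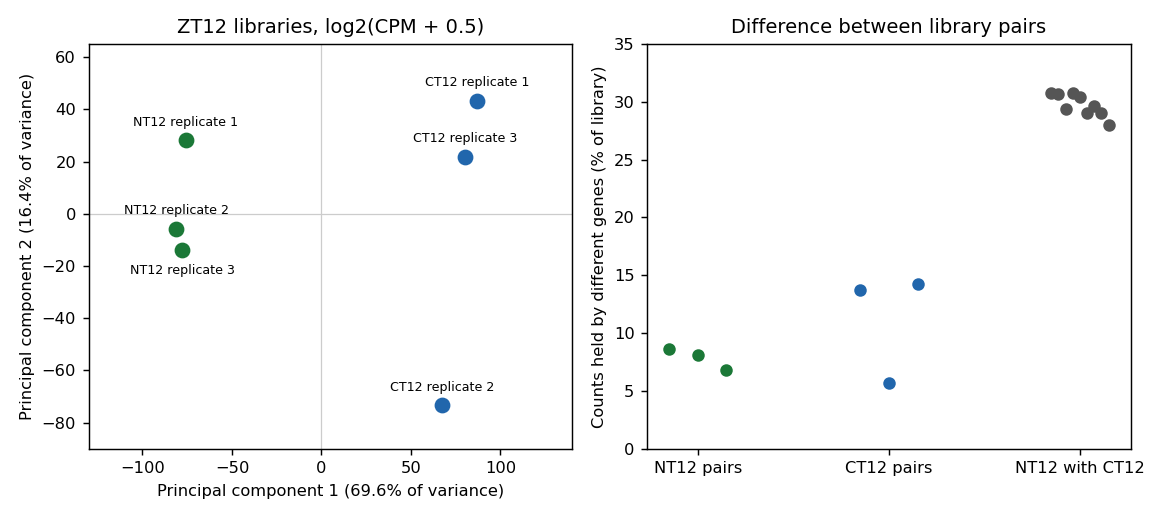
Left, the first 2 principal components of the 6 dusk libraries, from log2(CPM + 0.5) of 24700 genes; the axes give component scores. The first, with 69.6% of the variance, separates NT12 (green) from CT12 (blue), and the second, with 16.4%, separates CT12 replicate 2. Right, each point is a pair of libraries and its height is the percentage of counts held by different genes: 6.82 to 8.64 within NT12, 5.65 to 14.3 within CT12 and 28.0 to 30.8 between the groups.

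Chilling before dusk changed 11096 of the 24700 genes tested, 44.9% of them: 6160 rose (24.9%) and 4936 fell (20%) in edgeR's quasi-likelihood test, with TMM scaling and a threshold of 0.05 on the p adjusted by Benjamini-Hochberg. The median log2 fold change was 1.14 among the genes that rose and -1.22 among those that fell. The 90th percentile of the former was 3.07, and the 10th percentile of the latter was -2.78. For 5916 of the 6160 genes that rose, every CT12 library lay above every NT12 library, and for 4806 of the 4936 that fell, every CT12 library lay below. Over all genes tested, 27.5% had all CT12 libraries above and 26.4% had all of them below. Of the 13604 genes that were not called, 2602 were separated in this way too.

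The balance between rises and falls depended on the scaling. TMM sets the middle of all genes near 0 (median log2 change -0.02), whereas scaling by total counts put that median at -0.77. Under total counts, 2624 genes rose (10.6%) and 13080 fell (53.0%). All of these 2624 were among the 6160 that rose under TMM, while 532 of the 6160 were called lower under total counts. All 4936 genes that fell under TMM also fell under total counts. Going from TMM to total counts shifted the log2 change by a median of -0.75. Such a shift by itself keeps falls as falls and removes rises, so neither overlap tests the calls. A count table cannot tell which scaling is nearer to transcripts per cell, and in whole shoots fewer cells of a type and less RNA per cell cannot be told apart. Changes are given below relative to TMM, with the total-count value beside them where it was computed.

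Tested against a change of 2-fold and not against 0 (edgeR's glmTreat at the same threshold), 3220 genes (13%) had changed by more than 2-fold, of which 2092 rose (8.47%) and 1128 fell (4.57%). By more than 4-fold, 626 rose (2.53%) and 126 fell (0.51%) under TMM, and the test against 4-fold was not run under total counts. Under total counts the split at more than 2-fold turned to 997 rises (4.04%) and 4252 falls (17.2%). The 997 were all among the 2092, and the 4252 held all of the 1128, so that 997 rises and 1128 falls of more than 2-fold stood under both scalings. The shift between the scalings by itself keeps falls and removes rises, so this does not show the falls to be the firmer. Without CT12 replicate 2 the counts were 2130 rises and 1407 falls. Every one of 6 fits that each left out 1 dusk library called 4684 of the 6160 genes higher and 3415 of the 4936 lower, and none of these fits called a gene in the opposite direction.

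Changes of more than 2-fold were counted by level. Among the 86 genes averaging over 1000 CPM across all 12 libraries, 37 rose by more than 2-fold and 0 fell. Of the 1815 genes between 100 and 1000 CPM, 482 rose and 20 fell by more than 2-fold, or 26.6% and 1.10%. Of the 10151 genes between 10 and 100 CPM, 967 rose and 275 fell, and of the 7959 between 1 and 10 CPM, 443 rose and 596 fell. Below 1 CPM, 163 of 4689 rose and 237 fell. Under total counts the 2 upper classes had 20 rises and 3 falls, and 235 rises and 108 falls, so that rises still outnumbered falls there, whereas in the 3 lower classes falls outnumbered rises (1313 against 401 between 10 and 100 CPM). The mean over 12 libraries holds the CT12 libraries, so that a rise at dusk itself helps to put a gene in a higher class. Classes set by the mean of the 3 NT24 libraries, which are outside the contrast, were added after the data had been seen. Over 1000 CPM in NT24, 41 of 93 genes rose by more than 2-fold and 1 fell, and 21 rose and 4 fell under total counts. Between 100 and 1000 CPM in NT24, 313 of 1725 rose and 41 fell, but under total counts 151 rose and 181 fell. Below 1 CPM in NT24 the order turned: 384 of 5111 rose and 206 fell (258 and 651 under total counts). Over 1000 CPM, rises thus outnumbered falls in both sets of classes and under both scalings, which did not hold for the classes below. The precision differed between classes: the median standard error (SE) of the log2 change was 0.16 between 10 and 100 CPM and 0.84 below 1 CPM.

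**Figure D2:**
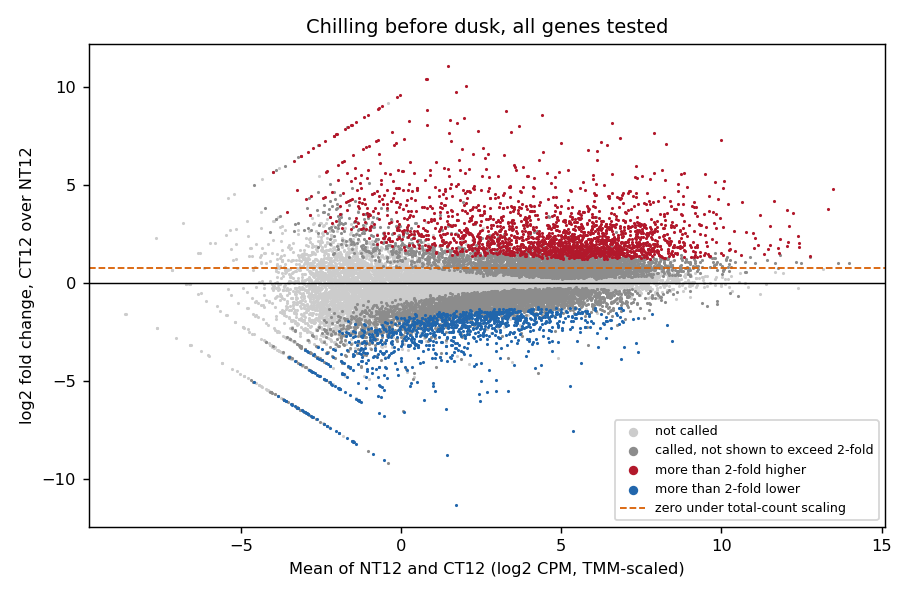
Each point is a gene. The horizontal axis is its mean level in NT12 and CT12 (log2 CPM, TMM-scaled) and the vertical axis its log2 fold change, CT12 over NT12, whose values enter both axes; 5 genes with no count in any dusk library are not drawn. The 2092 genes that rose by more than 2-fold (red) reach to the highest levels, the 1128 that fell (blue) lie mostly at lower levels, and the dashed line marks where a change of 0 would lie under total-count scaling, 0.75 above the TMM zero.

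As shares of library totals, counts moved from many genes to few. Between the NT12 and CT12 means, 28.4% of the counts passed from 22008 genes that lost share to 6955 that gained it. A share of the total is the total-count scaling, so this split of genes depends on that scaling. Under TMM, 6160 genes were called higher and 4936 lower. Only 69 genes held 50% of the gain, whereas 50% of the loss was spread over 1224 genes. The 10 largest gains came to 6.45 percentage points and the 10 largest losses to 1.61. The 626 genes that rose by more than 4-fold went from 2.39%, 2.36% and 2.52% of the counts in the NT12 libraries to 16.7%, 16.3% and 15.8% in the CT12 libraries. The 126 that fell by more than 4-fold went from between 0.348% and 0.361% to between 0.0221% and 0.0226%. These classes were called on the same libraries, so their shares describe the size of the change and do not test it.

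**Figure D3:**
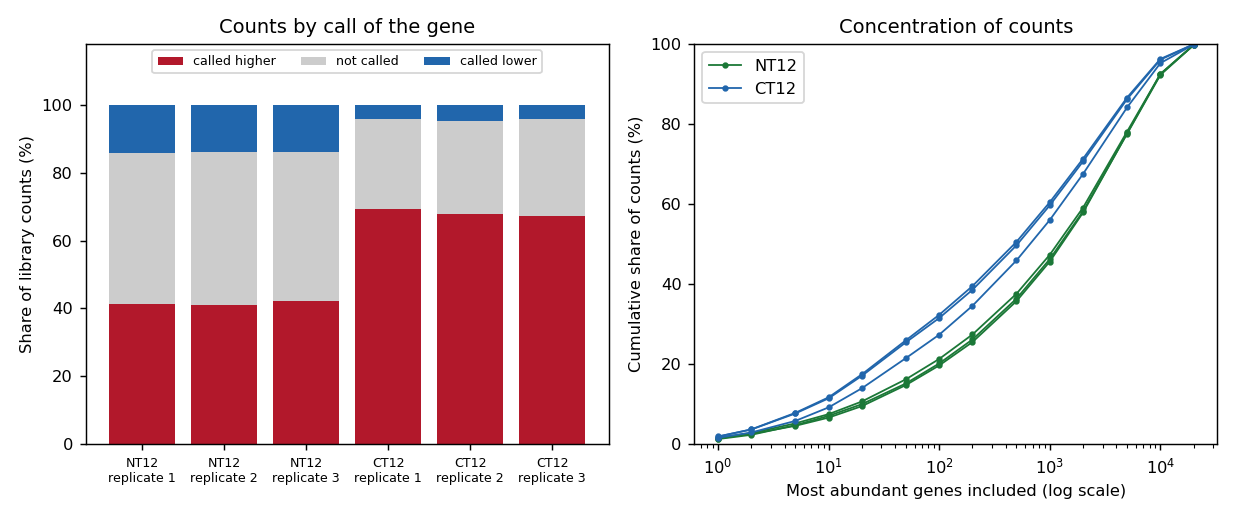
Left, the percentage of each library's counts held by the 6160 genes called higher (red), the 13604 not called (grey) and the 4936 called lower (blue) after chilling; bars are single libraries. The share of the first group is 41.0 to 42.2 in NT12 and 67.3 to 69.3 in CT12. Right, the cumulative percentage of counts held by the most abundant genes of each library (log axis); at 100 genes the NT12 libraries (green) lie at 19.7 to 21.3 and the CT12 libraries (blue) at 27.3 to 32.3.

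The list of the most abundant transcripts was partly replaced. The 100 genes with the highest mean share shared 66 members between NT12 and CT12. Single libraries shared 89 to 93 of 100 within NT12, 81 to 89 within CT12 and 59 to 67 between the groups. All 34 genes that entered the list had been called higher, against 24.9% of all genes tested. They were picked by their level in the same CT12 libraries, so these calls restate the choice and do not test it. The median rank of the 34 entrants in NT12 was 382. Of these, 9 came from outside the first 1000, the lowest from rank 10326. The 34 genes that left had a median rank of 159 in CT12. Of these, 8 were called lower and 4 higher, against 20% and 24.9% of all genes tested. Of the 34 entrants, 6 were also among the 100 most abundant genes of NT24 and 10 among those of CT24. Fewer genes had any count in CT12 (25316, 26124 and 25277) than in NT12 (26616, 26833 and 26904), but the CT12 libraries also had lower total counts. The difference of the means, CT12 minus NT12, was -1212 genes, and -1105 with all libraries thinned to the smallest. The number of genes needed to hold 50% of the counts was 1305, 1263 and 1187 in the NT12 libraries and 481, 667 and 512 in the CT12 libraries. The groups did not overlap, with an exact two-sided permutation p of 0.1, the smallest that 3 libraries against 3 allow. All 5 measures of whole libraries that were compared had this p, before and after Benjamini-Hochberg adjustment.

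The gene with the largest gain in CPM, OsR498G0306485300.01, became the most abundant transcript of the chilled seedlings on average, from rank 70. It stood at 777, 751 and 860 CPM in the NT12 libraries and at 25501, 17958 and 23193 CPM in the CT12 libraries. The groups did not overlap, which the rule for naming genes required, and the lowest CT12 value was that of replicate 2. Its means were 796 ± 56.9 and 22218 ± 3865 CPM (SD, n = 3), a rise of 4.80 ± 0.23 (SE) on the log2 scale, or 27.9-fold, at an edgeR adjusted p = 5.00e-08. Fits that left out 1 library gave log2 changes of 4.68 to 4.92, and it was 4.03 under total counts. It took 0.103%, 0.101% and 0.113% of the counts in NT12 and 1.87%, 1.57% and 1.75% in CT12.

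The second largest gain, that of OsR498G0917206700.01, had the same form. Its levels were 1212, 1459 and 1472 CPM in NT12 and 22226, 14017 and 20936 CPM in CT12, again with the lowest CT12 value in replicate 2. The means were 1381 ± 146 and 19060 ± 4414 CPM (SD, n = 3). It rose by 3.79 ± 0.32 (SE) on the log2 scale, at an edgeR adjusted p = 3.47e-06. This was 3.65 to 3.95 when a library was left out and 3.01 under total counts. It moved from rank 33 to rank 3. For neither gene do the files give a name or a function.

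The largest losses in CPM were smaller in fold. OsR498G0306797900.01 stood at 2148, 1423 and 1875 CPM in NT12 and at 1217, 990.3 and 1169 CPM in CT12. The groups did not overlap, which the naming rule required, but the gap between the lowest NT12 and the highest CT12 library was narrower than the spread within NT12. The means were 1815 ± 366 and 1126 ± 120 CPM (SD, n = 3), which gave -0.69 ± 0.17 (SE) on the log2 scale at an edgeR adjusted p = 0.00692. Fits that left out 1 library gave -0.87 to -0.59. Its fall was not shown to exceed 2-fold under TMM, and it was -1.45 under total counts. Novel00782, one of 1710 numbered identifiers outside the OsR498G series, stood at 1342, 1171 and 1259 CPM in NT12 and at 528, 695 and 562 CPM in CT12. Here every CT12 library lay well below every NT12 library, and replicate 2 was the highest of the CT12 libraries. On the log2 scale it fell by 1.08 ± 0.14 (SE), at an edgeR adjusted p = 7.80e-05, and this fall was not shown to exceed 2-fold under TMM either. The log2 change was -1.22 to -1.01 when a library was left out and -1.82 under total counts.

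**Figure D4:**
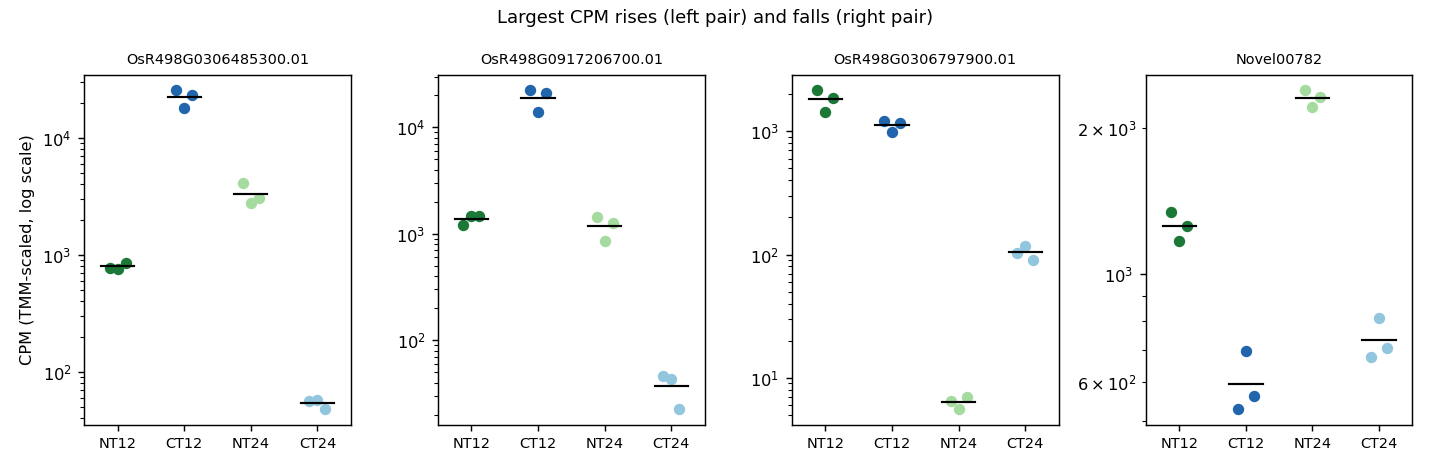
Level of the 2 genes with the largest CPM rises and the 2 with the largest falls at dusk in all 12 libraries (CPM, TMM-scaled, log axis; each panel has its own range). Points are libraries and bars are means of 3. The leftmost gene goes from 796 to 22218 CPM with chilling at dusk and from 3307 to 53.6 CPM with chilling at dawn.

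Some transcripts were counted at ZT12 in 1 group only; no library was taken at the start of the chill, so a course within the 4 h was not measured. For 16 genes there was no count in any NT12 library and at least 10 counts in each CT12 library. Their means in CT12 were 0.466 to 5.51 CPM, with a median of 0.929. Against a floor of 3 counts over the 3 NT12 libraries (0.0155 CPM) they were at least 29.7-fold to at least 355-fold higher. For 27 genes there was no count in CT12 and at least 10 in each NT12 library, where their means were 0.185 to 6.59 CPM. Against a floor of 0.0293 CPM in CT12 they were at least 6.34-fold to at least 226-fold lower. All 16 and all 27 were called in edgeR's test, against 24.9% called higher and 20% called lower of all genes tested. Both sets were picked by the counts of the same libraries, so their calls restate the choice and do not test it. The 16 and the 27 were rare transcripts, none of them above 7 CPM. The floors cover counting error only. They rest on TMM-scaled library sizes, so the fold bounds hold under TMM only, and none was computed under total counts.

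A further 6398 genes, 25.9% of those tested, were not called and had 95% intervals of the log2 change that lay wholly within 2-fold in either direction. For another 7206 genes that were not called the interval reached beyond 2-fold, so a change of that size was not excluded. The genes that were not called and held within 2-fold made up 39.9% of the genes between 10 and 100 CPM, 26.5% of those between 100 and 1000 CPM and 0.405% of those below 1 CPM. Called or not, 8683 genes had intervals within 2-fold, and 5902 under total counts.

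Most genes with large changes at dusk also changed with chilling at dawn. The 2 comparisons share no library, but both came from the same fit. They share its filter, its scaling and its estimate of each gene's spread, so the calls are not independent. Of all genes tested, 21.9% rose and 20.2% fell with chilling at dawn (CT24 against NT24, edgeR's quasi-likelihood test, adjusted p below 0.05). Of the 2092 genes that rose by more than 2-fold at dusk, 1330 (63.6%) rose at dawn, 242 (11.6%) fell and 520 were not called. Of the 1128 that fell by more than 2-fold at dusk, 742 (65.8%) fell at dawn and 38 (3.37%) rose. Of the 626 that rose by more than 4-fold, 421 rose at dawn and 79 fell. The size was smaller at dawn: the 2092 genes had a median log2 change of 2.25 at dusk and 1.05 at dawn, and the 1128 had -2.24 and -1.37. The genes had been picked for large changes at dusk, which by itself makes the dusk value the larger. The 6398 genes held within 2-fold at dusk rose at dawn in 20.6% of cases and fell in 17.1%.

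**Figure D5:**
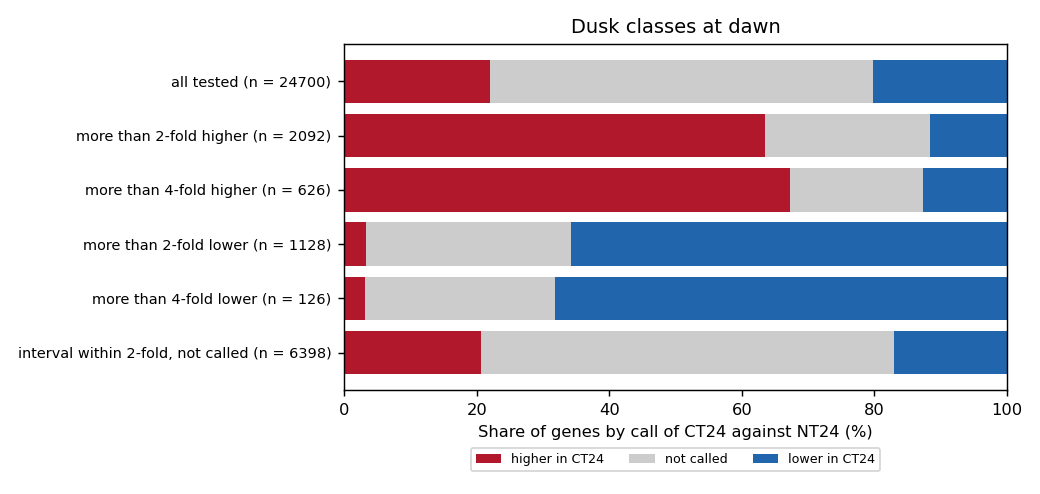
Each bar is a class of genes defined by the dusk comparison, divided by the call of the dawn comparison (percentage of the class; red, higher in CT24; grey, not called; blue, lower in CT24). Of the genes that rose by more than 2-fold at dusk 63.6% rose at dawn, against 21.9% of all genes tested, and of those that fell 65.8% fell at dawn, against 20.2%.

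The difference between the responses was called for 5486 genes, 22.2% of those tested (interaction term, edgeR's quasi-likelihood test, adjusted p below 0.05). The dusk response was the more positive for 3203 (13%) and the more negative for 2283 (9.24%), a split that total counts turned to 1312 and 9279. Without CT12 replicate 2 it was called for 7124. Of the 2092 genes that rose by more than 2-fold at dusk, the response was called more positive at dusk for 1173 under TMM, and for 765 under total counts. It was called more negative at dusk for 76 and 270. The 2092 had been picked for their rise at dusk, which enters the difference, so an excess in this direction follows in part from the choice. The 2 largest rises were among the 1173 and reversed at dawn. OsR498G0306485300.01 stood at 4098, 2761 and 3061 CPM in NT24 and at 55.9, 56.9 and 48.1 CPM in CT24, and the difference between its log2 changes at dusk and dawn was 10.75 (SE 0.33, edgeR adjusted p = 1.05e-08). OsR498G0917206700.01 went from 1445, 849 and 1265 CPM in NT24 to 45.8, 43.2 and 22.6 CPM in CT24, a difference of 8.78 (SE 0.47, edgeR adjusted p = 3.98e-07). In both, all CT24 libraries lay below all NT24 libraries.

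Calls in opposite directions at dusk and dawn were also counted among the genes with the largest gains. Of the 100 genes with the largest CPM rises at dusk, a group formed after the values had been seen, 33 were called lower at dawn, 51 higher and 16 in neither direction. Of the other 6060 genes that rose at dusk, 613 (10.1%) were called lower at dawn and 3188 (52.6%) higher. The 100 genes averaged 713 to 22218 CPM in CT12, and their median log2 change was 2.63 at dusk and 0.53 at dawn. With total counts, 34 were called lower and 51 higher at dawn. Of the 100 genes with the largest CPM falls at dusk, 23 were called higher at dawn and 50 lower, against 298 (6.04%) and 2430 (49.2%) of all 4936 genes that fell at dusk and 21.9% and 20.2% of all genes tested. Whether the 100 genes differ from other genes of the same abundance was not tested.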

How the data were processed

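Counts per gene in 12 libraries were analysed, 6 of them from dusk. The authors deposited whole-number counts without normalization, 1 column per library, which were used as deposited; the submitters' processing notes list HISAT2 2.0.4. No counting tool, genome build, annotation or strand setting is given in the sources used here. Values of genes that overlap or have near-identical copies are therefore uncertain. edgeR 4.0.16 in R 4.3.3 kept 24700 genes (minimum count 10, minimum total 15; at least 99.9% of each library's counts), scaled by TMM and fitted 1 mean per group to all 12 libraries without a block (8 residual degrees of freedom). P-values were adjusted (Benjamini-Hochberg) over all genes within each comparison and called below 0.05; SEs and intervals were derived from the F statistic. CPM used TMM-scaled library sizes. The fits were tested on simulated data in which few genes changed, in random directions. No shift between scalings was simulated, so that test does not bear on the calls that depend on scaling. Libraries of a group differed far beyond sampling noise (chi-square per gene 32.3 to 139), so none was merged. Genes were named by a rule: called, groups not overlapping, called in the same direction under total counts, and the 2 largest rises and falls in mean CPM. The groups compared, the lists and the rules were chosen with earlier results of these data known. Alternatives were other scalings and filters, DESeq2 1.42.0, limma-voom 3.58.1, the dusk libraries alone, a replicate block and each library left out.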

Additional observations from a re-analysis of the deposited data

Results flagged for a closer look

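The effect of chilling differed between dusk and dawn for 3 of the 4 named genes (interaction term, edgeR's quasi-likelihood test). It was called for 22.2% of all genes tested. The 4 genes had been picked for large dusk changes, which enter this difference, so the count follows in part from the choice. The difference of the log2 changes, dusk minus dawn, was 10.75 for OsR498G0306485300.01 (edgeR adjusted p = 1.05e-08; 9.99 to 10.88 over 18 alternatives) and 8.78 for OsR498G0917206700.01 (edgeR adjusted p = 3.98e-07; 8.02 to 8.97). It was -4.72 for OsR498G0306797900.01 (edgeR adjusted p = 4.12e-07; -5.46 to -4.61), which stood at 6.49, 5.59 and 7.03 CPM in NT24 and at 104, 117 and 90.7 CPM in CT24, and so rose at dawn where it fell at dusk.

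The concentration of the counts moved in opposite directions at dusk and dawn in every library, a difference that was not tested. The 100 most abundant genes of a library held 19.7%, 20.2% and 21.3% of the counts in NT12 and 32.3%, 27.3% and 31.5% in CT12, against 28.9%, 24.9% and 25.8% in NT24 and 21.3%, 22.9% and 22.4% in CT24. The change in the mean share with chilling was 14.4 percentage points more positive at dusk. The number of genes that held 50% of the counts fell by 698 at dusk and was 660, 840 and 778 in NT24 and 981, 896 and 943 in CT24, and its change at dusk minus its change at dawn was -879 genes.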

How the results depend on the processing

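The total of 11096 genes changed at dusk was 9497 to 15704 over the alternatives. The lowest came from the 6 dusk libraries alone (5098 rises and 4399 falls among 23522 genes tested), with 2635 changes of more than 2-fold. That fit kept 5033 of the 6160 rises and 4136 of the 4936 falls. No alternative of the named genes' dusk changes ended a call or turned a direction (adjusted p at most 0.0233 over 15 alternatives of each gene). The named genes had been picked for calls under TMM and total counts in these libraries, so their staying called follows in part from the rule. Among the scalings, edgeR's RLE method moved no count by more than 1.5 times (6232 rises and 4847 falls). Upper-quartile scaling moved the falls at dusk by more than that, and not the rises. It gave 4407 rises and 7794 falls, and 1536 and 1825 of more than 2-fold. Rises and falls both moved by more than 1.5 times under total counts. Total counts gave 2624 rises and 13080 falls, and 5249 changes of more than 2-fold (997 rises, 4252 falls); the difference between dusk and dawn was then called for 10591 genes, more positive at dusk for 1312 and more negative for 9279. The difference between dusk and dawn for Novel00782 was 0.58 (adjusted p = 0.0544), turned to -0.15 under total counts (adjusted p = 0.618), and was called without CT12 replicate 1 (0.66, adjusted p = 0.0452); the cause was not tested. With 1 library left out, changed genes numbered 9522 to 11867, those of more than 2-fold 2635 to 3537, genes within 2-fold 7738 to 8472, and those whose response differed between dusk and dawn 4260 to 7124. The highest of each came without CT12 replicate 2. With the replicate number as a block, 10157 genes were called at dusk (5713 higher, 4444 lower), 2837 by more than 2-fold and 4521 for the difference. Same-numbered dusk libraries had deviations from their group means that correlated at 0.33, 0.08 and -0.14, and not every library correlated best with its own number, so the numbers were not taken to pair the samples. Thinning all libraries to the smallest left the change in the share of the 100 most abundant genes at 10.0 percentage points. DESeq2 called 12179 genes and limma-voom 11314. Depth limits the rare genes most, below 1 CPM.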

Other observations

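The identifiers fell into classes by their form, which were described after they had been seen and have no stated meaning in the sources used here. Of 21 tested identifiers with the digits 00 after the G (OsR498G00), all 21 had a positive fitted log2 change at dusk under TMM, from 0.01 to 5.51 with a median of 1.66. The median over all genes tested was -0.02. Under total counts the 2 medians were 0.99 and -0.77, and signs were not counted. Of the 21 identifiers, 13 were called higher and 0 lower, and 10 and 0 under total counts (edgeR's quasi-likelihood test). Of all genes tested, 24.9% were called higher and 20% lower, and 10.6% and 53% under total counts. Together they held 0.0243%, 0.0295% and 0.0263% of the counts in the NT12 libraries and 0.0838%, 0.106% and 0.0524% in the CT12 libraries. With chilling at dawn 2 of the 21 were called higher and 0 lower, against 21.9% and 20.2% of all genes tested. Whether their reads are shared with copies elsewhere in the genome was not tested.

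The numbered identifiers outside the OsR498G series, such as Novel00782, had 1350 members tested, of which 162 (12%) rose and 389 (28.8%) fell at dusk. Their median level was 1.26 CPM. Between 10 and 100 CPM, 28.6% of 224 of them rose and 32.6% fell, against 35.2% and 16.9% of 9927 OsR498G identifiers. Under total counts the falls in that class came to 62.9% and 60.1%. Below 1 CPM, falls came to 19.0% and 14.7% under TMM and to 38.4% and 31.9% under total counts, and between 1 and 10 CPM to 38.8% and 28.7%, then 64.4% and 59.9%. Over 100 CPM only 19 of the numbered identifiers were tested, of which 5 fell under TMM and 12 under total counts. Among the other blocks of identifiers, those with 03 after the G had 28.9% rises and 17.6% falls at a median level of 14.2 CPM, and those with 11 had 18.6% and 23.8% at a median of 5.53 CPM.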
